A study of Mus musculus with 8 samples.

Results

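The effect of stroke on the brain of DEREG mice was set against the effect of stroke on the brain of wild-type (WT) mice, over 4 of the 8 arrays of the series. The groups were DEREG ischemia, DEREG sham, WT ischemia and WT sham, each with 1 array of total RNA from brain slice 3 on the ischemic side at day 14. DEREG mice carry the diphtheria toxin receptor under Foxp3 regulatory sequence, so that toxin can remove their regulatory T cells. Whether toxin was given, the stroke model, the age, the number of animals and any pooling are not given in the sources used here. The remaining 4 arrays, of CD4+ T cells sorted from brain or spleen, were not used here.

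Regulatory T cells are CD4+ T cells that depend on the transcription factor Foxp3 and restrain other lymphocytes. They enter the brain in the weeks after an ischemic stroke, where they have been linked to the control of reactive astrocytes. An infarct removes neurons of the cortex and striatum, and microglia, infiltrating leukocytes and scar-forming astrocytes then fill the tissue.

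For each gene the stroke effect was the log2 level on the ischemia array minus that on the sham array of the same genotype. The value reported here is the DEREG stroke effect minus the WT stroke effect, called the difference of stroke effects, and 1 on its log2 scale is a 2-fold difference. A level is a signal in units of the array's own 75th percentile, so levels can be read across arrays for 1 gene but not between genes. The probes compared were the 32617 that the scanner software called well above background on all 4 arrays, and 22274 of them stood for 15122 named genes. With 1 array per group there is no replicate, so no test was possible and no value here carries an error between animals. In bulk tissue, fewer cells of a type and less RNA per cell cannot be told apart.

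The arrays themselves were alike. Between 62.0% and 65.1% of probes were well above background, the 75th percentile of the signal lay between 411.4 and 439.4, and no spot was saturated. The technical error was small: over 298 probes printed repeatedly, the spots gave the difference of stroke effects a median SD of 0.08 (log2) for a single spot. Of 7 spike-in control probes with a signal of at least 100, the median difference of stroke effects was 0.02 before scaling and 0.14 after it. Y-linked genes were well above background on all 4 arrays and Xist on none. Foxp3 itself could not check the labels: its signals were 9.78 on the DEREG ischemia array, 2.38 on the DEREG sham array, 2.86 on the WT ischemia array and 2.58 on the WT sham array, none of them well above background.

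Gene by gene, the stroke effects of the 2 genotypes lay close together, and losses were deeper in DEREG brain. Across the 15122 genes the stroke effects of DEREG and WT, which share no array, had a Pearson correlation of 0.97, a description across genes that are not independent. The SD of the stroke effect over genes was 1.68 in DEREG and 1.39 in WT. Stroke effects of 1 or more were seen for 19.5% of genes in DEREG brain and 16.2% in WT brain, and effects of -1 or less for 22.7% in DEREG and 18.4% in WT.

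The gap between the genotypes varied with the size of the loss. The 2294 genes whose WT stroke effect lay between -2 and -1 had a median effect of -1.88 in DEREG and -1.38 in WT, and the 453 genes between -3 and -2 had -3.30 in DEREG and -2.20 in WT. In the 37 genes with the deepest WT loss, -3 or lower, the gap was smaller again, at -3.96 in DEREG and -3.21 in WT. Read the other way, the 509 genes at -3 or lower in DEREG had a median of -3.38 in DEREG and -2.16 in WT. Among induced genes, the 336 at 4 or higher in WT had a median of 5.15 in DEREG and 4.68 in WT. Selecting genes in one genotype pulls the median of the other towards 0, which widens the gap for genes chosen in DEREG and narrows it for genes chosen in WT.

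**Figure D1:**
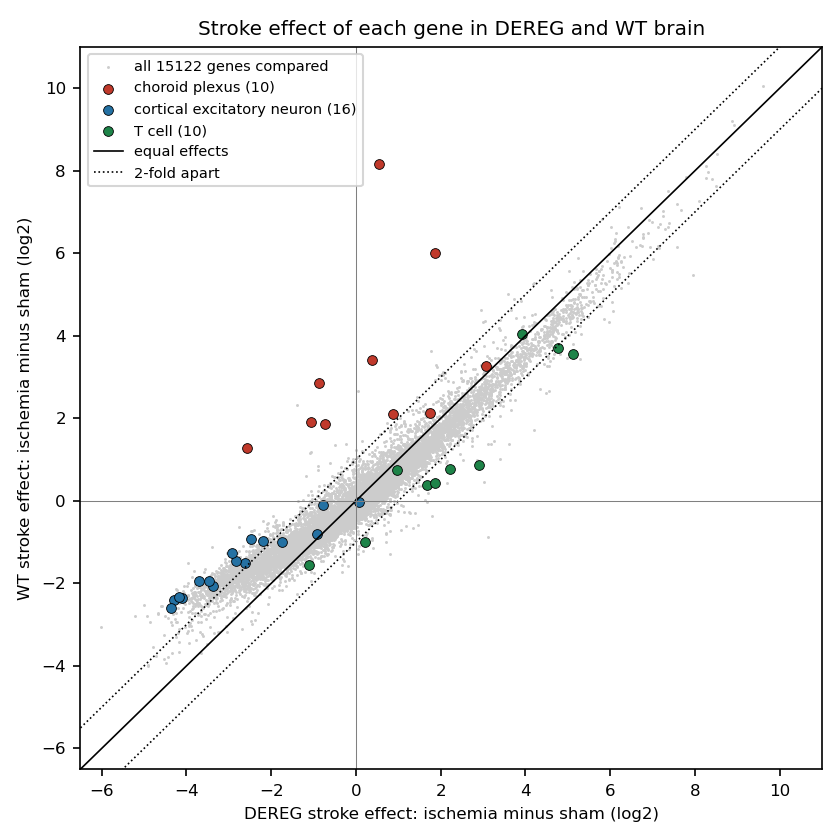
Stroke effect of each of 15122 genes in DEREG (x axis) and in WT (y axis), as log2 ischemia minus sham, with 1 array per group; the solid line marks equal effects and the dotted lines effects 2-fold apart. Of 10 choroid plexus genes (red) 8 lie above the upper dotted line, 12 of 16 cortical excitatory neuron genes (blue) lie past the 2-fold line on the side of deeper loss in DEREG, and 7 of 10 T cell genes (green) lie past it on the side of a higher effect in DEREG.

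In the difference of stroke effects, 138 genes stood at 1 or higher, which is 0.913% of all genes compared, and 787 stood at -1 or lower, which is 5.2%. The median over all genes was 0.06, and 77.1% of genes lay within 0.5 of 0. Of the 787 lower genes, 647 were at least 2-fold lower after stroke in both genotypes, and their losses were deeper in DEREG. A further 78 passed 2-fold loss in DEREG alone. The median stroke effect of the 787 was -3.04 in DEREG and -1.80 in WT. Of the 138 higher genes, 66 were at least 2-fold higher after stroke in both genotypes and 40 in DEREG alone, with medians of 2.44 in DEREG and 0.96 in WT. Just inside the threshold the nearest higher gene stood at 1.001, and just outside it the nearest genes were 0.9999 in size, so the counts mark no break in the values. With the background modelled in another way (normexp) the counts were 80 higher and 410 lower genes, and without the filter on dim probes 1081 and 1756.

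The genes of the choroid plexus, the epithelium that secretes cerebrospinal fluid in the ventricles, had the lowest values of the whole comparison. Of 18 listed genes 10 were compared, 8 stood at -1 or lower and none at 1 or higher, with a median of -3.01 against 0.06 for all genes. The dimmer of them depend on the background model, and with normexp the median was -1.57. Ttr, which encodes the thyroid hormone carrier transthyretin, had a level of 1.19 on the DEREG ischemia array, 0.819 on the DEREG sham array, 63.4 on the WT ischemia array and 0.223 on the WT sham array. The WT ischemia array alone was high. Its stroke effect was 0.53 in DEREG and 8.15 in WT, a difference of -7.62.

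Folr1, a folate receptor of the choroid epithelium, had a level of 0.398 on the DEREG ischemia array, 0.109 on the DEREG sham array, 3.72 on the WT ischemia array and 0.0578 on the WT sham array. The difference was -4.14, and here both genotypes were higher after stroke. Sostdc1, a secreted antagonist of BMP and Wnt signals, had levels of 0.0406 on the DEREG ischemia array, 0.0742 on the DEREG sham array, 0.412 on the WT ischemia array and 0.0567 on the WT sham array, a difference of -3.73. Kcne2, a potassium channel subunit, had levels of 0.141 on the DEREG ischemia array, 0.110 on the DEREG sham array, 0.764 on the WT ischemia array and 0.0716 on the WT sham array, a difference of -3.05. In each of these genes the WT ischemia array was the highest of the 4. For Sostdc1 and Kcne2 the other 3 arrays lay nearer to each other than to it, while for Folr1 they were spread as well.

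Clic6, an intracellular chloride channel protein, went opposite ways. Its level was 0.167 on the DEREG ischemia array and 0.986 on the DEREG sham array, against 1.68 on the WT ischemia array and 0.684 on the WT sham array, a difference of -3.86. Kl, which encodes the FGF23 co-receptor klotho, had levels of 0.0756 on the DEREG ischemia array and 0.157 on the DEREG sham array, against 0.362 on the WT ischemia array and 0.0958 on the WT sham array, a difference of -2.97. Prlr, the prolactin receptor, stood at -2.58 and Kcnj13, a potassium channel, at -1.23. Of the 10 genes, Slc13a4, a sulfate transporter (-0.38), and Col8a1, a collagen chain (-0.19), were the 2 inside 2-fold.

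Among the 8 listed choroid plexus genes left out of the comparison, 6 were well above background on both ischemia arrays. Otx2, a transcription factor of that epithelium, was at 0.164 times the WT level on the DEREG ischemia array, with signals of 51.2 there and 317.3 on the WT ischemia array. Slc4a5 was at 0.237 times and Calml4 at 0.283 times the WT level, while the water channel Aqp1, which other cells also express, was 2.75-fold higher on the DEREG ischemia array. Genes of ependymal cells, which line the ventricles, had a median of -0.23, and none of 8 reached 2-fold. Of 13 meningeal fibroblast genes 1, Fmod (-1.15), was past -1, and the median was -0.24. The summed level of the choroid plexus genes compared was 28.8 on the DEREG ischemia array, 8.52 on the DEREG sham array, 97.0 on the WT ischemia array and 6.02 on the WT sham array. Such a sum follows its brightest probes and is no measure of choroid plexus content. On the DEREG ischemia array Ttr gave 1.19 of it and Folr1 0.398, while Clic6, Kcne2, Kl, Prlr and Sostdc1 each gave 0.167 or less. Most of the sum there came from Kcnj13, Slc13a4 and Col8a1. How much choroid plexus each tissue piece held was not measured apart from these genes, and its part in the result was not tested.

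Several genes outside that list shared the pattern. Cox8b, a cytochrome c oxidase subunit, had levels of 0.107 on the DEREG ischemia array, 0.281 on the DEREG sham array, 1.08 on the WT ischemia array and 0.215 on the WT sham array, a difference of -3.72. Of the 787 lower genes, 5 were at least 2-fold lower after stroke in DEREG and at least 2-fold higher in WT: Clic6, Cox8b, Kl, Asb5 and 6720483E21Rik. A further 19, Ttr, Sostdc1, Kcne2 and Prlr among them, were at least 2-fold higher after stroke in WT alone.

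Neuronal genes made up the second group, and most of them were lower after stroke in both genotypes. Of 16 cortical excitatory neuron genes compared, 12 stood at -1 or lower and none at 1 or higher, with a median of -1.46. The median stroke effect of the list was -2.88 in DEREG and -1.47 in WT, and its median difference between the sham arrays was 0.08. Slc17a7, the vesicular glutamate transporter of cortical neurons, had a level of 0.342 on the DEREG ischemia array, 6.66 on the DEREG sham array, 1.20 on the WT ischemia array and 6.28 on the WT sham array. Both sham arrays were high and close together, and the DEREG ischemia array was the lowest. The difference was -1.89.

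The same order held in the other leading members. Tbr1, a transcription factor of deep-layer cortical neurons, had levels of 0.651 on the DEREG ischemia array, 13.5 on the DEREG sham array, 2.44 on the WT ischemia array and 14.7 on the WT sham array, a difference of -1.78. Lamp5 stood at -1.84, Neurod6 at -1.76 and Emx1 at -1.65. At the other end, Cplx3, a complexin of deep cortical cells, stood at -0.12 and Ccn2, a matrix-associated growth factor, at 0.10.

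Among the 12 lowest named genes, 3 others were lower after stroke in both genotypes and further in DEREG. Slc30a3, the zinc transporter of glutamatergic synaptic vesicles, had levels of 0.0635 on the DEREG ischemia array, 2.04 on the DEREG sham array, 0.297 on the WT ischemia array and 1.69 on the WT sham array, a difference of -2.49. Kcnv1, a modifier subunit of potassium channels, had levels of 0.0335 on the DEREG ischemia array, 2.18 on the DEREG sham array, 0.276 on the WT ischemia array and 2.28 on the WT sham array, a difference of -2.98. A second Kcnv1 probe, well above background on 2 arrays, gave 0.16. Its levels were 0.00618 on the DEREG ischemia array and 0.00703 on the WT ischemia array, too dim to show a difference between them. On the DEREG sham array it was at 0.114 and on the WT sham array at 0.145. Car12, a membrane carbonic anhydrase, stood at -2.45. In these genes the DEREG ischemia value lay near the detection limit: with normexp, Kcnv1 came to -1.11 and Slc30a3 to -1.42, while the median of the cortical list came to -1.21. Over the alternative settings Car12 came as near to 0 as -0.90, which is inside 2-fold.

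Receptors of glutamate and GABA were also lower. Of 22 glutamate and GABA receptor genes, 12 stood at -1 or lower, all 22 were below 0, and the median was -1.06. Gabrb2, a subunit of the GABA-A receptor, had levels of 1.40 on the DEREG ischemia array, 20.6 on the DEREG sham array, 4.12 on the WT ischemia array and 20.97 on the WT sham array, a difference of -1.53. Gabrd stood at -1.48, the NMDA receptor subunit Grin2a at -1.46 and Grin1 at -1.35. The glial metabotropic receptor Grm3 stood at -0.05. The list was lower after stroke in WT as well, with a median effect of -2.86 in DEREG and -1.78 in WT.

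Of 16 serotonin genes only 4 were compared, with a median of -1.25, or -0.63 with normexp. Htr2c had levels of 0.195 on the DEREG ischemia array, 3.22 on the DEREG sham array, 0.679 on the WT ischemia array and 3.57 on the WT sham array, a difference of -1.65. Htr2a stood at -1.56 and Htr3a at -0.94. Htr7 had levels of 0.269 on the DEREG ischemia array, 1.01 on the DEREG sham array, 0.324 on the WT ischemia array and 1.15 on the WT sham array, a difference of -0.08, with a dimmer second probe at -0.84. The serotonin transporter gene Slc6a4 and Tph1, a serotonin-synthesizing enzyme, were not well above background on any of the 4 arrays.

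Other neuron classes had smaller differences. Striatal projection neuron genes had the deepest loss of these lists, with median stroke effects of -3.72 in DEREG and -3.02 in WT, but a median difference of -0.74 and 1 of 19 genes at -1 or lower (Tac1, the precursor of substance P, at -1.05). For inhibitory interneurons the median was -0.72, and 4 of 15 genes, led by Calb2 (-1.61) and Vip (-1.54), were at -1 or lower. Among 7 hippocampal neuron genes, whose median was -0.73, Lct (-1.30) and Spink8 (-1.27) were the 2 past -1. The value of Spink8 came mainly from the sham arrays: its DEREG minus WT difference was -0.41 between the ischemia arrays and 0.86 between the sham arrays. Over the alternative settings the hippocampal median ranged between -1.10 and -0.30. Thalamic neuron genes had a median of 0.23, with 9 of 13 above 0 and Calb2, Slc17a6 (-1.12), Grid2ip (-0.91) and Adarb1 (-0.64) below it, and cholinergic neuron genes a median of -0.01. Between the 2 sham arrays the medians of these 5 lists lay between -0.32 and 0.27. Each gene named here at -1 or lower stood inside 2-fold under at least 1 alternative setting. Nearest to 0, Calb2 came to -0.39, Spink8 to -0.41, Slc17a6 to -0.49, Lct to -0.50, Tac1 to -0.81 and Vip to -0.85.

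Immediate early genes, which neuronal activity induces, owed their negative median to the sham arrays. Of 18 genes 4 stood at -1 or lower and the median was -0.41. The median DEREG minus WT difference of the list was 0.10 between the ischemia arrays and 0.36 between the sham arrays, so that the list as a whole was not lower on the DEREG ischemia array. Arc, which regulates receptors at active synapses, had levels of 4.67 on the DEREG ischemia array, 24.9 on the DEREG sham array, 8.83 on the WT ischemia array and 17.4 on the WT sham array, a difference of -1.44. Nr4a1 stood at -1.28, with a genotype difference of -0.53 between the ischemia arrays and 0.75 between the sham arrays. Npas4 stood at -1.28 and Nr4a2 at -1.09. Unlike Nr4a1, the genes Arc, Npas4 and Nr4a2 drew the larger part of their value from the ischemia arrays. Their genotype differences there were -0.92, -1.05 and -1.23, against 0.52, 0.22 and -0.14 between the sham arrays. The 3 genes above 0 were Fosl2 (0.41), Jun (0.16) and Nr4a3 (0.10). Atf3, the most induced gene of the list with stroke effects of 4.61 in DEREG and 5.10 in WT, stood at -0.50.

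Neuropeptide genes split in both directions: of 21 compared, 6 stood at -1 or lower and 2 at 1 or higher. Cck, the cholecystokinin precursor of cortical neurons, had levels of 10.98 on the DEREG ischemia array, 124.0 on the DEREG sham array, 33.1 on the WT ischemia array and 123.9 on the WT sham array, a difference of -1.59. Cartpt stood at -1.40 and Crh at -1.35. Avp, the vasopressin precursor, was the highest gene of the whole comparison. Its level was 5.68 on the DEREG ischemia array and 0.656 on the DEREG sham array, against 0.641 on the WT ischemia array and 1.17 on the WT sham array, a difference of 3.98.

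Avp and Oxt are made by the large secretory neurons of the hypothalamus. Oxt, the oxytocin precursor, had levels of 6.08 on the DEREG ischemia array, 1.38 on the DEREG sham array, 2.35 on the WT ischemia array and 1.21 on the WT sham array, a difference of 1.18, and its second probe gave 2.04. Ghrh, the growth hormone releasing hormone, stood at 2.004, with levels of 0.152 on the DEREG ischemia array, 0.0594 on the DEREG sham array, 0.118 on the WT ischemia array and 0.185 on the WT sham array. That value came mainly from the sham arrays, and a second Ghrh probe gave 0.60. The other 11 hypothalamic neuron genes compared stood between -0.999 and 0.34, and the median of the list was -0.02. The hypothalamic factors Sim1 and Otp were not well above background on any array. How much hypothalamus each piece held was not tested.

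**Figure D2:**
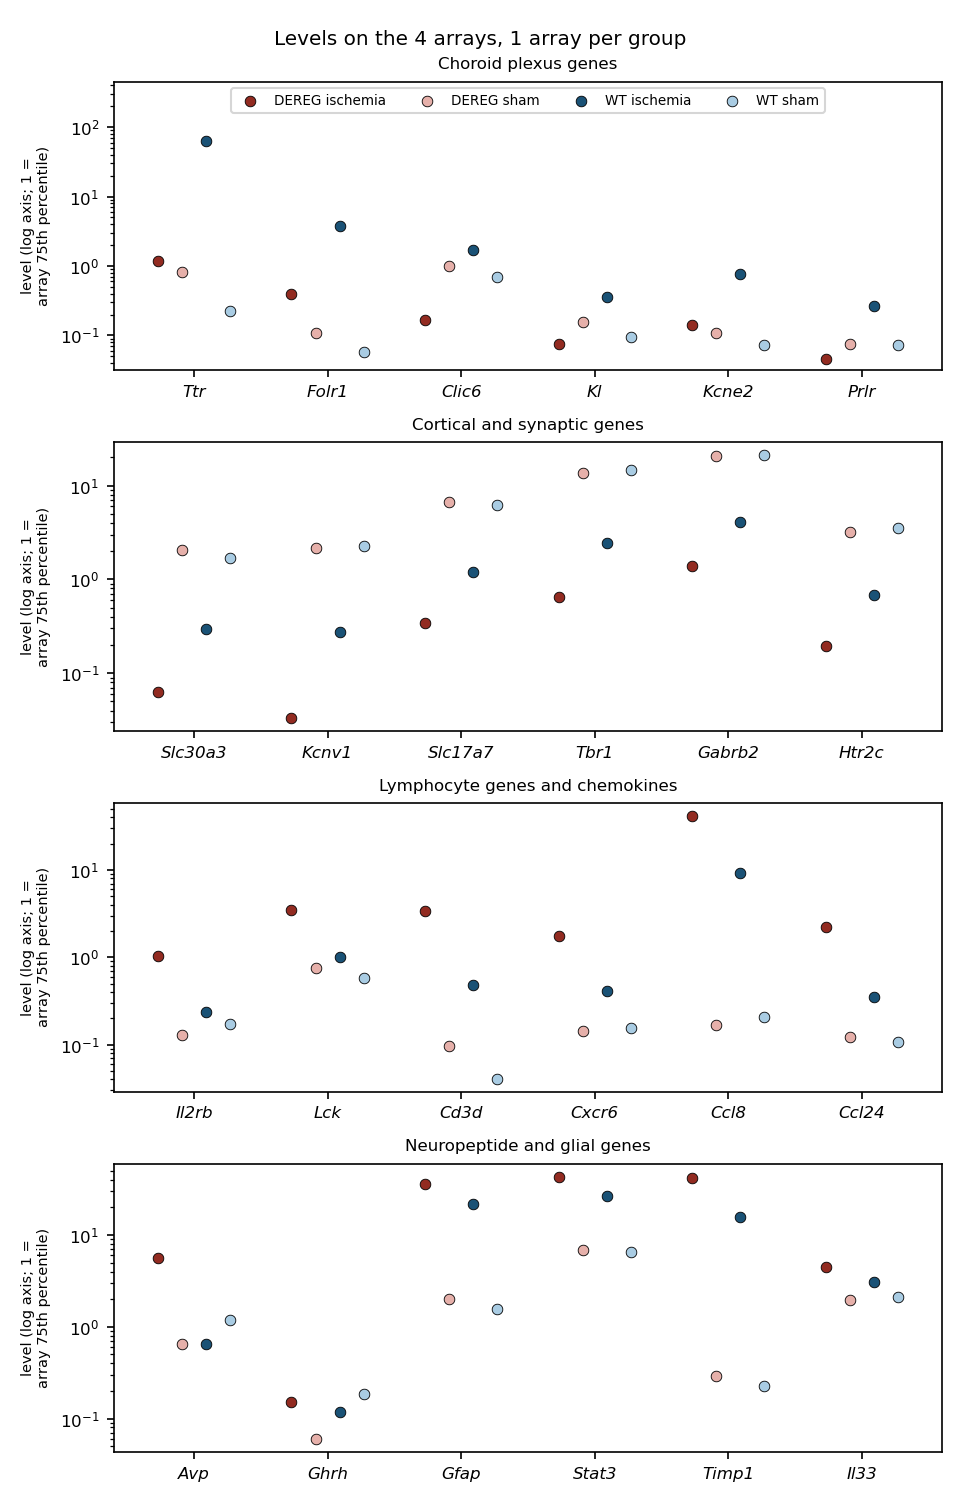
Levels of named genes on the DEREG ischemia, DEREG sham, WT ischemia and WT sham arrays (1 array each, log axis, 1 is the array's 75th percentile). Ttr stands at 63.4 on the WT ischemia array and at 1.19 or lower on the other 3, Slc17a7 is lowest on the DEREG ischemia array at 0.342, and Cd3d is highest there at 3.38.

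T cell genes were the list with the highest median, 1.25. Of 14 listed genes 10 were compared, 7 stood at 1 or higher and none at -1 or lower. Cd3d, a chain of the CD3 signalling complex of the T cell receptor, had levels of 3.38 on the DEREG ischemia array, 0.0967 on the DEREG sham array, 0.479 on the WT ischemia array and 0.0409 on the WT sham array. Both ischemia arrays lay above both sham arrays, and the DEREG ischemia array lay highest. Its stroke effect was 5.13 in DEREG and 3.55 in WT, a difference of 1.58.

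Most other genes of the list, among them kinases downstream of the receptor, stood in the same direction. Lck, the kinase that starts receptor signalling, had levels of 3.50 on the DEREG ischemia array, 0.749 on the DEREG sham array, 1.004 on the WT ischemia array and 0.583 on the WT sham array, a difference of 1.44, with a second probe at 1.96. Zap70, the next kinase in that pathway, stood at 1.41 (second probe 1.46), Cd3e at 1.28, Cd6 at 1.21 and Cd5 at 1.05. The costimulatory receptor Cd28 stood at -0.14.

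The other 4 genes of the list were below the detection call on the WT sham array, and 3 of them on the DEREG sham array as well, and were set against each other between the ischemia arrays only. Cd8b1, a chain of the CD8 co-receptor, was 10.5-fold higher on the DEREG ischemia array, with signals of 1223 there and 118.3 on the WT ischemia array. Cd3g was 8.21-fold, Cd8a 7.47-fold and Cd2 6.81-fold higher. The CD4 co-receptor gene, which microglia and other myeloid cells can also express, was lower after stroke in both genotypes, with levels of 1.07 on the DEREG ischemia array, 2.32 on the DEREG sham array, 0.962 on the WT ischemia array and 2.82 on the WT sham array.

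Genes of NK and cytotoxic cells were mixed where they could be compared. Of 10 listed genes 3 were compared, with a median of 0.38: Prf1, the pore-forming perforin, stood at 1.06, the chemokine Ccl5 at 0.38 and the NK cell receptor Klrb1c at -0.71. Ccl5 was 3.53-fold higher in DEREG between the ischemia arrays and 2.71-fold higher between the sham arrays. Klrb1c was brightest on the sham arrays, at 9.34 in DEREG and 10.4 in WT. It was lower after stroke in both genotypes, and whether it followed NK cells here was not tested. Of the 7 left out, 4 were well above background on both ischemia arrays. The granzyme genes Gzma and Gzmb were 6.87-fold and 7.23-fold higher on the DEREG ischemia array than on the WT ischemia array, Nkg7, a granule protein, 7.14-fold, and Klrd1, an NK cell receptor, 2.21-fold. Among the 12 highest genes of the comparison, Il2rb, the beta chain of the receptors for IL-2 and IL-15, had levels of 1.03 on the DEREG ischemia array, 0.128 on the DEREG sham array, 0.235 on the WT ischemia array and 0.170 on the WT sham array, a difference of 2.55. Cxcr6, a chemokine receptor of effector lymphocytes, had levels of 1.76 on the DEREG ischemia array, 0.143 on the DEREG sham array, 0.406 on the WT ischemia array and 0.155 on the WT sham array, a difference of 2.23. Tbc1d10c, an inhibitor of Ras and calcineurin in lymphocytes, stood at 2.06.

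The promoters of 2 of these genes are shown since both stood with the T cell genes among the higher values. They are 300 bases of the RefSeq annotation of GRCm38.p6 around the start of the gene, on the plus strand, for Cd3d at chr9:44981536-44981835 and for Cxcr6 at chr9:123806227-123806526. Capitals mark matches on either strand to GGAAGT, letters bound by ETS factors, and to TGTGGT, letters bound by Runx factors. The motifs and promoters were chosen after the values were seen.
Cd3d: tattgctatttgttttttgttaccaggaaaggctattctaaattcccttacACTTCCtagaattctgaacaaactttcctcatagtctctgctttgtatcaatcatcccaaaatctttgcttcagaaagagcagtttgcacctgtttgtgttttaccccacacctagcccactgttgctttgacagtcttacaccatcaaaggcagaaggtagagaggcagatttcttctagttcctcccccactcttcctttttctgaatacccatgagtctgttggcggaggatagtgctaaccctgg
Cxcr6: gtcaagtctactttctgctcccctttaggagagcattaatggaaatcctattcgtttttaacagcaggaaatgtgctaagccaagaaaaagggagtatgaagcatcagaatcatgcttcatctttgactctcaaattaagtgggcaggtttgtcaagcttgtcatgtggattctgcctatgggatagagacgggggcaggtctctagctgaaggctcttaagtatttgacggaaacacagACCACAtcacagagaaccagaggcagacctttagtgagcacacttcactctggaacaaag

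Cd3d held GGAAGT on the minus strand, starting at base 52 of the sequence shown, and Cxcr6 held TGTGGT on the minus strand, starting at base 241. The 2 motifs share no overlap in these sequences. GGAAGT was in a promoter of 33.3% of the 96 higher genes that had one in the table, 17.8% of 590 lower genes and 30.4% of all 11963 compared genes with a promoter. TGTGGT was in 22.9%, 12.4% and 15.2% of the same genes. Over all 32851 promoters of the table the shares were 23.8% for GGAAGT and 16.8% for TGTGGT. A match is a description of letters only.

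Genes linked to regulatory T cells were mostly too dim to compare. Of 13 listed genes 5 were compared, with a median of 0.07, 1 at -1 or lower and none at 1 or higher. The lower gene was Gpr83, a receptor that neurons also express, at -1.07, with losses after stroke in both genotypes. Ctla4 and Il10 were not well above background on any array, and Tigit was so on the DEREG ischemia array alone. Il2ra, the alpha chain of the IL-2 receptor, and Tnfrsf18, known as GITR, were 3.64-fold and 3.91-fold higher on the DEREG ischemia array than on the WT ischemia array, and activated T cells of other kinds also express both. Il1rl1, the receptor for IL-33, had signals of 121.7 on the DEREG ischemia array and 105.9 on the WT ischemia array. Il33, an alarmin of glia, had levels of 4.45 on the DEREG ischemia array, 1.95 on the DEREG sham array, 3.07 on the WT ischemia array and 2.13 on the WT sham array, a difference of 0.66. Areg, which encodes amphiregulin, was not well above background on any array.

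Chemokine genes were mixed. Of 14 compared, 2 stood at 1 or higher and none at -1 or lower, with a median of 0.23. Ccl8, a monocyte and lymphocyte attractant, had levels of 41.4 on the DEREG ischemia array, 0.167 on the DEREG sham array, 9.15 on the WT ischemia array and 0.206 on the WT sham array, a difference of 2.48. Ccl24, an eosinophil attractant that stands outside the list, had levels of 2.23 on the DEREG ischemia array, 0.121 on the DEREG sham array, 0.354 on the WT ischemia array and 0.108 on the WT sham array, a difference of 2.49. Ccl9 stood at 1.04. Ltb4r1, the leukotriene B4 receptor of leukocytes, stood at 2.38.

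Of the chemokine genes left out for a dim sham array, 6 were well above background on both ischemia arrays and 4 of these were at least 2-fold higher on the DEREG one: Ccl7 by 3.77-fold, Cxcl9 by 3.75-fold, Cxcl13 by 3.45-fold and Cxcl1 by 2.48-fold. Ccl1, a ligand of CCR8, had signals of 49.3 on the DEREG ischemia array and 13.1 on the WT ischemia array. Ccl20 was not well above background on any array. In the other direction, the neuronal chemokine Cx3cl1 stood at -0.90, with losses after stroke in both genotypes.

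The glial and inflammatory lists had medians inside 2-fold in the difference. Reactive astrocyte genes had median stroke effects of 4.69 in DEREG and 4.48 in WT and a median difference of 0.41, with 1 of 25 at 1 or higher. That gene, Timp1, an inhibitor of matrix metalloproteases, had levels of 41.9 on the DEREG ischemia array, 0.294 on the DEREG sham array, 15.7 on the WT ischemia array and 0.225 on the WT sham array, a difference of 1.03. Gfap, the intermediate filament of astrocytes, had levels of 35.8 on the DEREG ischemia array, 2.03 on the DEREG sham array, 21.9 on the WT ischemia array and 1.54 on the WT sham array. Both ischemia arrays lay far above both sham arrays, and the difference of stroke effects was 0.31, with a second probe at -0.04. Of 5 reactive astrocyte genes left out of the comparison, 4 were well above background on both ischemia arrays. On the DEREG ischemia array Ptx3 was 3.25-fold, Steap4 2.11-fold, B3gnt5 1.71-fold and Cd109 1.41-fold above the WT ischemia array.

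The IL-6 family and its transducer STAT3, a pathway of reactive astrocytes, had a median difference of 0.46 with none of 14 genes at 2-fold either way. Stat3 had levels of 43.1 on the DEREG ischemia array, 6.82 on the DEREG sham array, 26.7 on the WT ischemia array and 6.58 on the WT sham array, a difference of 0.64. Il6 was detected on the ischemia arrays only, with signals of 252.9 on the DEREG ischemia array and 108.5 on the WT ischemia array, 2.37-fold higher in DEREG. Pim1, a STAT3 target kinase, stood at 0.87 and the shared receptor chain Il6st at 0.71. Of the EGF family, Nrg1, a neuregulin, stood at 1.20 and Hbegf at 1.01. Egfr stood at 0.07.

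Homeostatic microglia genes had a median of 0.37, all 12 above 0 and none at 2-fold, with P2ry12 highest at 0.71. Disease-associated phagocyte genes had a median of 0.23, complement genes 0.28 and MHC class II genes 0.25, none of them with a gene at 2-fold. A second probe of the complement gene C3 gave 1.01, against 0.60 for the probe used. Cfb, left out for a dim sham array, was 2.33-fold higher on the DEREG ischemia array than on the WT ischemia array. No other left-out gene of these lists that was detected on both ischemia arrays was 2-fold apart. For interferon response genes the median was 0.51, all 16 were above 0, and Gbp3, an interferon-induced GTPase, stood at 1.07. Ifi44, also left out for a dim sham array, was 2.02-fold higher on the DEREG ischemia array than on the WT ischemia array. All 9 proliferation genes were above 0, their median was 0.61 and none reached 2-fold. Oligodendrocyte genes had a median of 0.36, endothelial genes 0.24 and astrocyte genes -0.04, again with none at 2-fold.

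Some inflammatory genes were higher in DEREG already between the sham arrays, which the difference of stroke effects takes out. The median DEREG minus WT difference between the sham arrays was 0.59 for MHC class II genes, 0.55 for chemokine genes and 0.44 for reactive astrocyte genes. Between the ischemia arrays it was 0.80, 1.005 and 0.78 for the same lists. S100a8, a neutrophil alarmin, had levels of 13.6 on the DEREG ischemia array, 0.196 on the DEREG sham array, 4.16 on the WT ischemia array and 0.0526 on the WT sham array. DEREG was the higher genotype both after stroke and after sham, and the difference of stroke effects was -0.18. Lcn2, an acute-phase protein of reactive astrocytes, stood at -0.89 likewise, with levels of 94.8 on the DEREG ischemia array, 1.27 on the DEREG sham array, 35.3 on the WT ischemia array and 0.255 on the WT sham array.

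**Figure D3:**
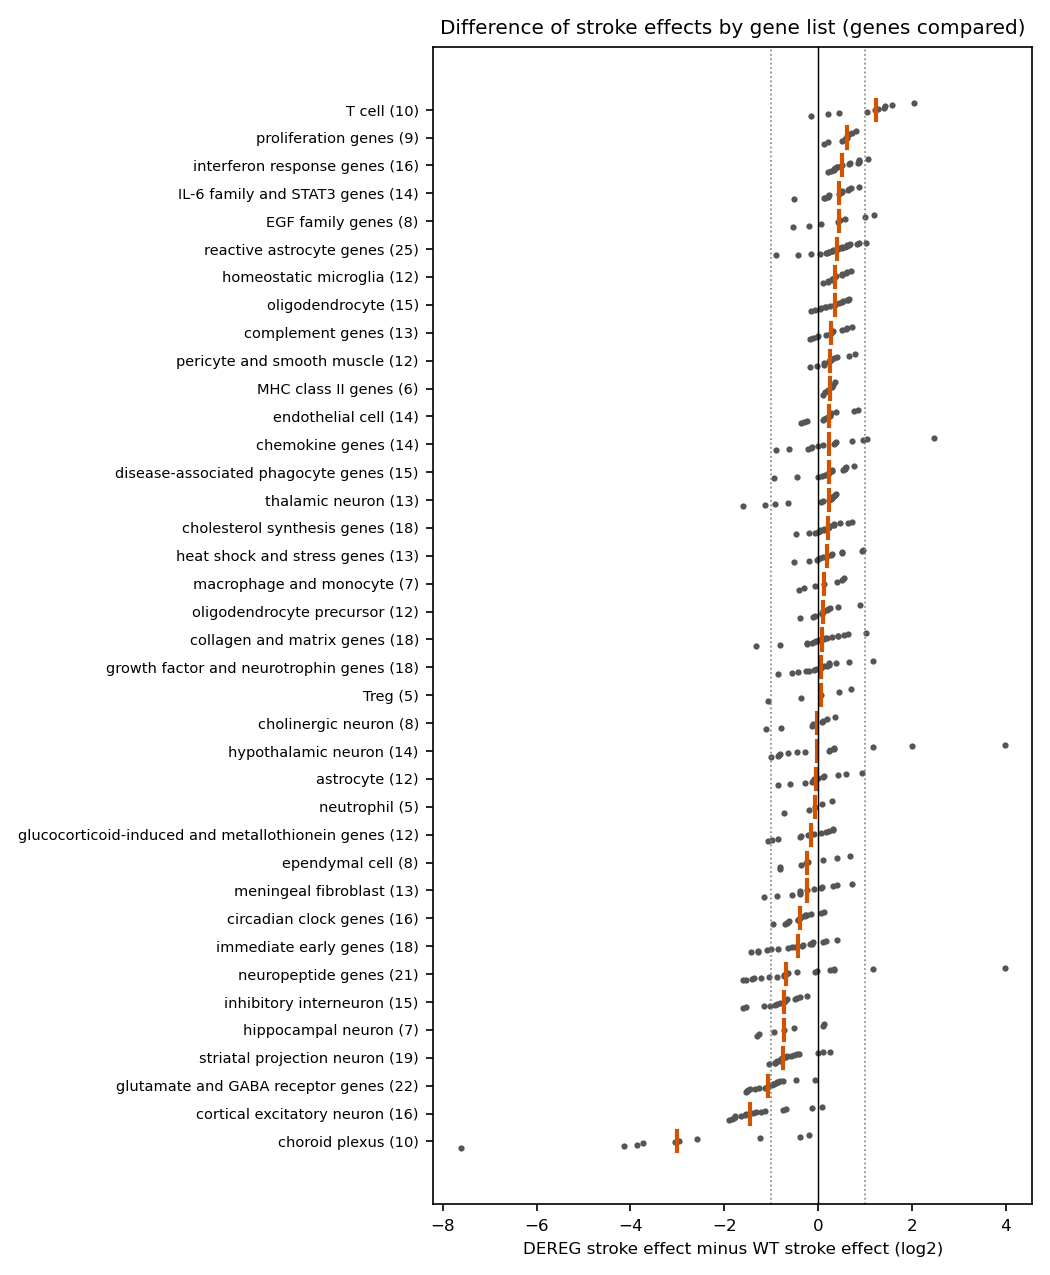
Difference of stroke effects (DEREG minus WT, log2, x axis) for the members of each gene list with at least 5 genes compared; each point is a gene, the orange bar is the median of the list and the number in brackets its genes compared. Medians run between -3.01 for choroid plexus and 1.25 for T cell genes, and the medians of the glial and inflammatory lists lie between the dotted 2-fold lines.

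Most of the 2-fold genes drew their value from the ischemia arrays. The difference of stroke effects equals the genotype difference between the ischemia arrays minus that between the sham arrays, and the first part was the larger in size for 106 of the 138 higher genes and 750 of the 787 lower genes. Over all genes the SD of the genotype difference was 0.48 between the ischemia arrays and 0.20 between the sham arrays. Between the ischemia arrays, DEREG levels were 2-fold above WT or more for 0.939% of genes and 2-fold below or more for 5.11%. Between the sham arrays these shares were 0.265% and 0.106%.

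The exceptions hold genes from both ends of the ranking. Cytl1, a small secreted cytokine-like protein, stood at -2.59, with levels of 0.250 on the DEREG ischemia array, 0.240 on the DEREG sham array, 0.295 on the WT ischemia array and 0.0470 on the WT sham array. Only the WT sham array was low. Sprr2g, a small proline-rich protein of epithelia, stood at 2.09, with levels of 0.0561 on the DEREG ischemia array, 0.0321 on the DEREG sham array, 0.0374 on the WT ischemia array and 0.0907 on the WT sham array. Cd72, a B cell and myeloid receptor, had levels of 22.6 on the DEREG ischemia array, 0.359 on the DEREG sham array, 18.1 on the WT ischemia array and 0.894 on the WT sham array, a difference of 1.64 set mainly by the sham arrays. Foxc2, a transcription factor of mesenchyme, stood at -1.68 in the same way.

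**Figure D4:**
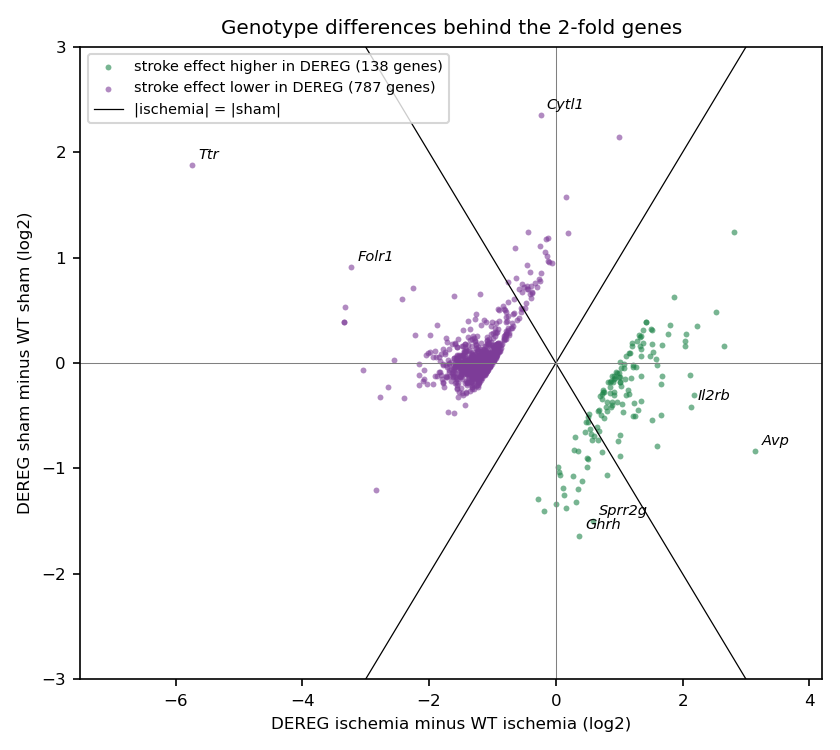
Genotype difference between the ischemia arrays (x axis) and between the sham arrays (y axis), both DEREG minus WT in log2, for the 138 genes with a higher stroke effect in DEREG (green) and the 787 with a lower one (purple). Most points spread along the x axis near a sham difference of 0, outside the diagonals that mark equal size, while Cytl1, Sprr2g and Ghrh lie on the sham side.

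Further probes of the same genes mostly stood on the same side. The lower genes had 277 further probes well above background on all arrays, of which 266 had the same sign and 169 were again at -1 or lower. The higher genes had 16, of which 14 had the same sign and 7 were again at 1 or higher. Over the 5624 genes with more than 1 probe, the extreme probes of a gene lay 0.19 apart at the median and 0.80 at the 95th percentile. Second probes left out of the comparison gave 2.25 for Cxcr6, 2.06 for Il2rb, -2.70 for Folr1 and -5.43 for Ttr, each below the detection call on at least 1 array. Further Prlr probes gave -2.82 and 0.07, the latter well above background on no array.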

How the data were processed

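The deposited scanner files of the 4 brain arrays (Agilent SurePrint G3 Mouse 60K v2, 1 colour, Cy3; the submitters' processing notes name Agilent Feature Extraction 10.7.1.1) hold, per the file headers, intensity values: the software's processed signal, used here, beside median, background and background-subtracted signals. Each probe's processed signal (averaged over its spots, flagged spots left out) was turned into log2 and the array's 75th percentile over all 56605 non-control probes was subtracted. Each gene was represented by its compared probe with the highest mean. Of 32620 probes well above background on all 4 arrays, 3 were left out because their only spot was flagged on an array, among them a probe of Sncb and one of Mcm7. The deposited series table holds a signal that equals the processed intensity divided by 1 constant per array, within 0.1% for all 56305 probes with 1 spot; its column medians ran from 0.110 to 0.123. The values are linear and uncentred, and were used as an alternative; 4 further columns of that table, of samples not used here, were left out.

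Genes were named by matching the scanner files' RefSeq accessions, without versions, to the RefSeq table of GRCm38.p6; 32989 probes matched 1 symbol and 23616 had none. Contrasts were computed with Python 3.11.15, numpy 2.4.6 and pandas 2.3.3, and normexp (offset 50) and quantile alternatives with R 4.3.3 and limma 3.58.1. The normexp fit used median spot signals, since the files hold no mean signals. The steps were tested on simulated data. No test between groups was possible with 1 array each; the spots measure technical error only. All 4 arrays lay on 1 slide. The 43 gene lists (624 genes, 495 of them compared), the rules and the members were chosen with earlier results of these data known. Named were the 12 highest and 12 lowest genes with a real symbol, up to 6 members of each list at 2-fold or else its 3 largest, extremes of each pattern, and 10 genes of interest; any other gene in the text was named after its values were seen. A few genes that these rules name are not reported here.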

Additional observations from a re-analysis of the deposited data

Results flagged for a closer look

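For 11 named genes the stroke effects went opposite ways in the 2 genotypes, each by more than 2 times the median SD of a single-spot stroke effect (0.057). That SD is 1 value from the repeatedly printed probes, not the error of each gene's own probe, and dim probes can be noisier. Over the alternative settings the smallest difference was 0.49 for Sprr2g, 0.87 for Mctp2 and 0.37 for Ghrh, while the other genes stayed past 2-fold. These settings were compared for the difference only, so whether each single stroke effect kept its sign was not checked. A small effect can change sign with the scaling point, and that of Cd6 in DEREG was 0.21. Before scaling, the spike-in probes had median stroke effects of 0.34 in DEREG and 0.33 in WT. The difference was not tested, since each group has 1 array. In 6 of them the DEREG effect was the positive one: Avp (3.11 in DEREG, -0.87 in WT, difference 3.98), Mctp2 (1.79 and -0.35, difference 2.14), Sprr2g (0.81 and -1.28, difference 2.09), Tbc1d10c (1.46 and -0.60, difference 2.06), Ghrh (1.36 and -0.65, difference 2.004) and Cd6 (0.21 and -0.999, difference 1.21). In the other 5 the WT effect was the positive one. Clic6 had effects of -2.57 in DEREG and 1.29 in WT, a difference of -3.86, Sostdc1 of -0.87 and 2.86, a difference of -3.73, and Cox8b of -1.39 and 2.33, a difference of -3.72. Kl had effects of -1.05 in DEREG and 1.92 in WT, a difference of -2.97, and Prlr of -0.72 and 1.86, a difference of -2.58. Choroid plexus genes are 4 of these 5. Only the 158 named genes were searched, 72 of them at 2-fold, and a flagged gene also had to differ by 2-fold. Those genes were named as extremes of the comparison or as leading list members, choroid plexus among the lists. The counts of 11 and of 4 therefore follow the naming and are no shares over all genes.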

How the results depend on the processing

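No paired analysis was possible because each group has 1 array, and for the same reason no replicate could be left out. The counts of 138 higher and 787 lower genes became 80 and 410 under normexp background correction, 1081 and 1756 with no filter on dim probes, 69 and 557 under the stricter filter, 207 and 570 with the median as scaling point, and 89 and 1082 under spike-in scaling; with quantile normalization, the 75th percentile over detected probes, the deposited table and the median over a gene's probes they stayed within 1.5 times. Spike-in scaling and the common sham baseline were added after seeing the data; with that baseline the counts were 142 and 772. The share of higher genes among the 2-fold genes was 14.9%, and 26.6% with the median as scaling point and 38.1% with no filter. These scalings shifted the median over genes by 0.11 (median as scaling point) and -0.14 (spike-in scaling). The share of 2-fold genes carried by the ischemia arrays was 92.5%, and 98.6% under normexp, 70.9% with no filter and 98.4% under the stricter filter. No named gene or list median at 2-fold changed sign under any alternative, but of 72 such genes 51 stayed at 2-fold under normexp and 59 with the common sham baseline. Over all alternatives the list medians ranged between -3.14 and -1.57 for choroid plexus, -1.59 and -1.21 for cortical excitatory neurons, -1.39 and -0.47 for serotonin genes, and 1.11 and 1.38 for T cell genes. The lists near 0 followed the scaling: the astrocyte median ranged between -0.18 and 0.07. Timp1 stood inside 2-fold with quantile normalization (0.89), spike-in scaling (0.90) and the 75th percentile over detected probes (0.99). Hbegf did so with these 3 (0.95, 0.87 and 0.97), with the common sham baseline (0.88) and with normexp (0.99). With the common sham baseline the median of the immediate early genes was 0.10. Genes near the detection limit on 1 array depend most on the background model, and the number of arrays limits every value.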

Other observations

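Clock genes, glucocorticoid-induced genes and matrix genes gave 3 further groups. Of 16 circadian clock genes 14 were below 0, with a median of -0.39 and none at 2-fold. The median DEREG minus WT difference of the list was -0.18 between the ischemia arrays and 0.22 between the sham arrays, so both pairs contributed. Ciart, a repressor of the clock, was lowest at -0.97, with levels of 0.216 on the DEREG ischemia array, 0.415 on the DEREG sham array, 0.287 on the WT ischemia array and 0.283 on the WT sham array. Among glucocorticoid-induced genes Sult1a1, a sulfotransferase, stood at -1.06 and Plin4, a lipid droplet protein, at -0.98, both with a higher level in DEREG between the sham arrays: 4.24 for Sult1a1 on the DEREG sham array against 2.44 on the WT sham array, and 2.77 against 0.805 for Plin4. Of 18 matrix genes Col6a2, a collagen VI chain, stood at -1.33 and Timp1 at 1.03, while Col1a1 (-0.22), Col1a2 (-0.23) and Col3a1 (-0.13) differed little. The growth factor Gdnf stood at 1.17, with levels of 0.192 on the DEREG ischemia array, 0.183 on the DEREG sham array, 0.110 on the WT ischemia array and 0.236 on the WT sham array.

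Of the 10343 compared probes with no gene name, 89 stood at 1 or higher and 433 at -1 or lower. Over all 32617 compared probes the counts were 256 and 1530.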
